A study of Mus musculus with 9 samples.

Results

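The cornified envelope is the tough protein shell that replaces the plasma membrane of the outermost skin cells, and 42 genes for its proteins and for the enzymes and partners that assemble it were followed here in neutrophils sorted from mouse skin and skin lesions. The genes were taken by name from the array, namely all Sprr genes (15), the numbered Lce genes (13 Lce1 and 4 Lce3) and 10 singly named genes, Lor, Ivl, Flg, Cnfn, Tgm1, Tgm3, Cdsn, Krtdap, Sbsn and Dmkn. They make up 42 of 34797 gene names and 50 of 55681 probes, and the rule reads gene names alone. In FVB/N mice, a strain prone to skin tumors, the carcinogen DMBA was given at 6 and 13 weeks of age and the tumor promoter PMA was applied from week 1 to week 18 to 20. Gr-1bright neutrophils were sorted by flow cytometry to a purity above 98% from skin next to papillomas (papilloma skin, 2 arrays), skin next to tumors (tumor skin, 2), papillomas (3) and tumors (2). All 4 groups had the same DMBA and PMA treatment, and skin of untreated mice was not analysed here. For each array the neutrophils were purified from pooled tissue of several mice, so the arrays are the replicates, and p-values measure the spread between these pools. Lesions were dissociated with collagenase, dispase and DNase and the surrounding skin with collagenase alone, so that the tissue and the enzymes used on it cannot be told apart.

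In the epidermis, involucrin and loricrin are cross-linked to each other and to small proline-rich (Sprr) proteins by transglutaminases, and late cornified envelope (Lce) proteins are added as the cell dies. Most of these genes lie side by side in the epidermal differentiation complex, a gene cluster on mouse chromosome 3. Loricrin, filaggrin and the Lce1 proteins belong to normal terminal differentiation, whereas Sprr1, Sprr2 and Lce3 genes are known to be induced in wounded, inflamed and hyperproliferative epidermis. Neutrophils are short-lived phagocytes of the blood that do not cornify. In sorted cells measured in bulk, a higher level in the same cells and a larger share of cells that carry the transcript cannot be told apart.

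Of the 42 genes, 35 had probes on chromosome 3 between positions 91884206 and 93083753 of mm9, the build of the array design, in the order Lor, Sprr2, Sprr1b, Sprr3, Sprr1a, Sprr4, Ivl, Lce1, Lce3, Lce1m and Flg. The other 7 lay on chromosome 7 (Cnfn and the neighbors Sbsn, Dmkn and Krtdap), 17 (Cdsn), 14 (Tgm1) and 2 (Tgm3). RefSeq promoters (GRCm38.p6) were matched by symbol for 39 of the 42 genes, and motifs were searched on both strands in the 250 bases before the transcription start. The AP-1 motif TGANTCA lay in 7 of 9 Sprr2 promoters, in 2 of 2 Sprr1 promoters, in 6 of the 10 singly named genes and in 0 of 12 Lce1 and 0 of 4 Lce3 promoters, against 6.75% of all 32851 promoters. The octamer motif ATGCAAAT lay in the same 7 Sprr2 promoters and in none of the other member promoters, against 1.6% of all. The motif TATAAA lay in 17 of the 39, against 12.4% of all, and TTCNNNGAA, the spacing bound by STAT factors, in 3 of the 39, against 7.02% of all. A match describes the letters in this window and not a bound site. The promoters of Sprr1a, Sprr2d, Sprr2f and Sprr2h are shown because these genes had some of the largest lesion differences, and that of Sprr2b because it holds the same 3 motifs although its probe stayed near background in every group. Capitals mark the AP-1, octamer and TATAAA matches, which do not overlap, and each sequence runs 5′ to 3′ on the gene's strand.
Sprr1a, chr3:92485913-92486035 (minus strand): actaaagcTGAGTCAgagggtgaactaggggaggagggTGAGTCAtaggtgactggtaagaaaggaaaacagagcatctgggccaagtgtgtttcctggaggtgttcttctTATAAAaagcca
Sprr2b, chr3:92316502-92316687 (plus strand): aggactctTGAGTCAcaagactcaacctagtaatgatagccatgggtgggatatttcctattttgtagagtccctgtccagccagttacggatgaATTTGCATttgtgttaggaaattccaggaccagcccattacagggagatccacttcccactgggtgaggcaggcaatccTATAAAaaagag
Sprr2d, chr3:92338939-92339122 (plus strand): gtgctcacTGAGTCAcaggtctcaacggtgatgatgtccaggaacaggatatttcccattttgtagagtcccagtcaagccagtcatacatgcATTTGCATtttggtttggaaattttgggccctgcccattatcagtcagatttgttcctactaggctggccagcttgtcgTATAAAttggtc
Sprr2f, chr3:92364982-92365169 (plus strand): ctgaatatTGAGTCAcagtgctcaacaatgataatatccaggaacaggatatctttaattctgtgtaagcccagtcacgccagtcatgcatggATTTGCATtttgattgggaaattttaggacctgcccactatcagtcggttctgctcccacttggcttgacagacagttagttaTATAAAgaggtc
Sprr2h, chr3:92385479-92385667 (plus strand): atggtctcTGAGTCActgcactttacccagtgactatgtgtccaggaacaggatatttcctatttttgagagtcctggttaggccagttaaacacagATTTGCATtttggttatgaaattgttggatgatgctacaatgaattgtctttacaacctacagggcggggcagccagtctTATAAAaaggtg
Each sequence was cut shortly before its first AP-1 or octamer match and shortly after its last match. Positions within a sequence are thus set by the cut, and only order and spacing are read. In each Sprr2 sequence the octamer, here as its reverse complement, follows the AP-1 match. Between them lie 78 bases in Sprr2d and Sprr2f, 80 in Sprr2b and 82 in Sprr2h. Sprr1a has 2 AP-1 matches and no octamer.

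Levels are log2 values of the deposited value table, whose 9 columns have medians of 6.08 to 6.12, and a gene with several probes is given by their median. Genes were compared with limma over the whole table and called where the p adjusted by Benjamini-Hochberg did not exceed 0.05 and the log2 fold change was 1 or more in either direction. The sample identity of the table has limits. The columns papilloma skin 1 and tumor 1 ranked the probes most like the scanner file of tumor 2 (Spearman's rho = 0.924 and 0.947, against 0.588 and 0.827 with their own files), papilloma 2 and papilloma 3 were each closest to the other's file, and the remaining 5 columns were closest to their own. The scanner files of papilloma skin 1, tumor skin 1 and tumor 1 had a compressed signal range, with spike-in slopes of 0.678 to 0.894 against 1.041 to 1.056 on the other 6 arrays. Results are therefore also given for the other 7 columns, whose rho with their own files was 0.931 to 0.980, and from the scanner files. These 7 are called the 7 matching columns, although papilloma 2 and papilloma 3 were closer to each other's file within their group. Papilloma skin 2 and tumor 2 are then the only arrays of their groups, so that these groups add no spread. Each column took the slide of its own sample's scanner file. For papilloma skin 1, tumor 1, papilloma 2 and papilloma 3 another file was closer, which limits comparisons of the columns by slide. All 11 neutrophil markers, among them S100a8 and S100a9, were well above background on all 6 full-range arrays.

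The comparison of neutrophils in papillomas with those in the surrounding skin asks what differs in the benign lesion. Here 15 of the 42 genes were called higher in papilloma and 0 were called lower, where 2.57% of all genes were called higher, 1.3% lower and 3.87% in either direction. The log2 fold change was above 0 for 37 of the 42, with a median of 0.86 against -0.01 for all genes tested. An unadjusted p under 0.05 was found for 22 of the 42 and for 7571 of all 34797 genes. The called genes were 10 of 15 Sprr genes, 3 of 4 Lce3 genes, Cnfn and Tgm1, while 0 of 13 Lce1 genes were called. Family medians were 2.70 for Sprr, 1.92 for Lce3, 0.25 for Lce1 and 0.81 for the singly named genes. Among all genes of the table, 5 of the 20 largest log2 fold changes were of Sprr genes.

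The comparison of tumors with tumor skin asks the same of the malignant lesion. Here 18 of the 42 genes were called higher in tumor and 1, Lce1h, was called lower, where 2.86% of all genes were called higher, 1.97% lower and 4.83% in either direction. The median log2 fold change was 0.96 against -0.01 for all genes. An unadjusted p under 0.05 was found for 25 of the 42 and for 9390 of all 34797 genes. The called genes were 11 of 15 Sprr, all 4 Lce3, 2 higher and 1 lower of 13 Lce1, and Cnfn. Family medians were 4.22 for Sprr, 3.80 for Lce3, 0.14 for Lce1 and 0.75 for the singly named genes. Of the 20 largest log2 fold changes on the array, 11 were of members, and Sprr2d ranked first of all 34797 genes.

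**Figure D1:**
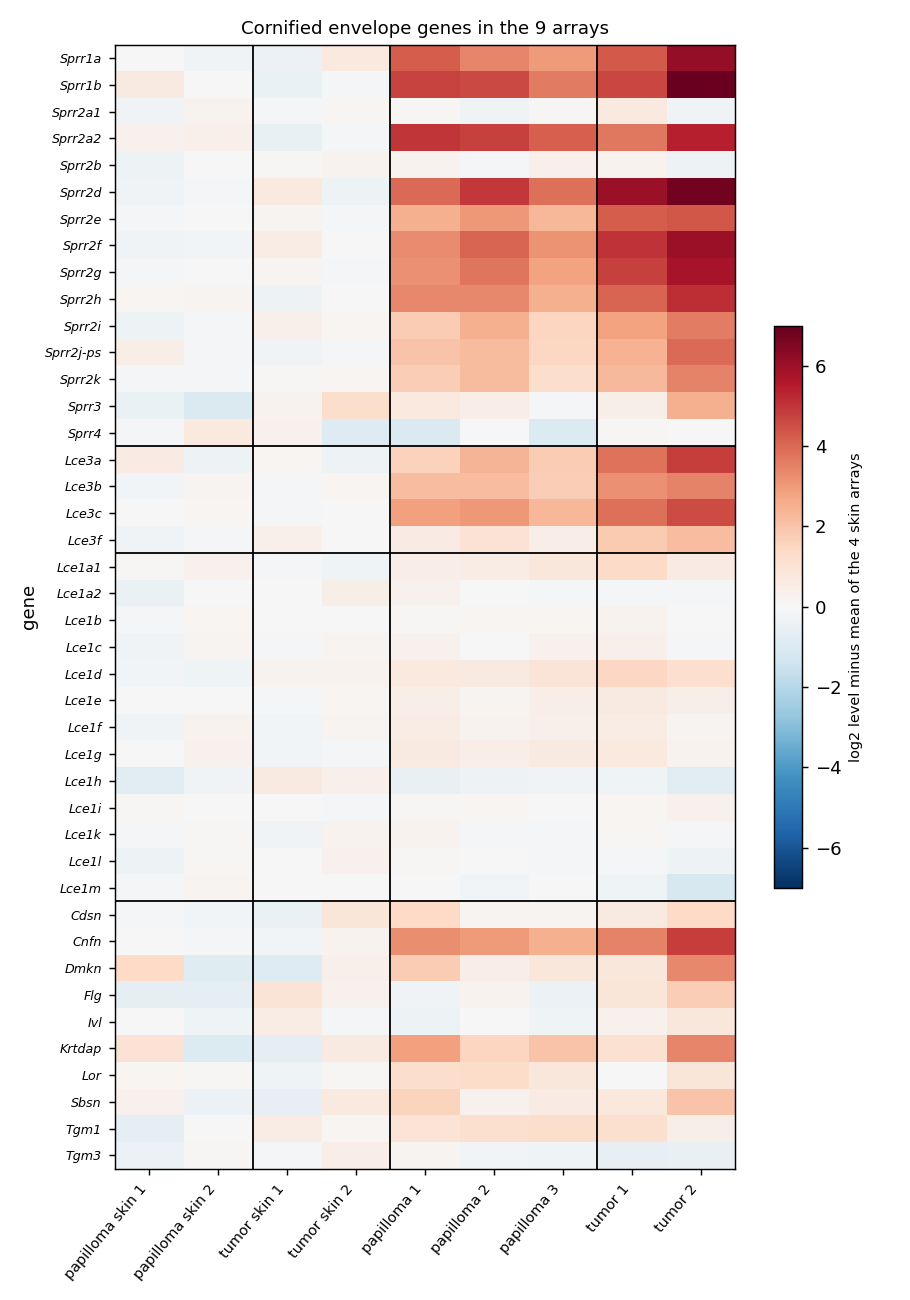
Log2 level of each of the 42 genes in each of the 9 arrays minus that gene's mean over the 4 skin arrays, in the value table, with red above and blue below that mean and lines between families and groups. Most Sprr genes, the 4 Lce3 genes and Cnfn are red in the 5 lesion columns, and the Lce1 block stays near the skin mean.

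Sprr1a and Sprr1b encode cross-bridging precursors of the envelope. Sprr1a had log2 levels of 6.82 and 6.60 in papilloma skin, 6.43 and 7.54 in tumor skin, 11.08, 10.24 and 9.82 in papilloma and 11.13 and 12.99 in tumor. Sprr1b stood at 6.25 and 5.62 in papilloma skin, 5.14 and 5.46 in tumor skin, 10.37, 10.26 and 9.23 in papilloma and 10.31 and 12.53 in tumor. For both genes every lesion array lay above every skin array, and tumor 2 was the highest. Groups this small often separate, since in 19.9% of all genes every papilloma array lay above both papilloma skin arrays, in 26.2% both tumor arrays lay above both tumor skin arrays, and in 18.9% both tumor arrays lay above every papilloma array. Sprr1a was 12.7-fold higher in papilloma than in papilloma skin (log2 fold change 3.67, SE 0.58, limma adjusted p = 0.00881) and 33.7-fold higher in tumor than in tumor skin (5.08, SE 0.64, adjusted p = 0.00403). Sprr1b had log2 fold changes of 4.02 (SE 0.61, adjusted p = 0.00717) and 6.12 (SE 0.67, adjusted p = 0.0024). With slide in the model, Sprr1a was no longer called in either stage and Sprr1b not in tumors. In the scanner file of papilloma skin 1 Sprr1a stood at 12.16, above the 3 papilloma files (9.83 to 11.86), and its papilloma difference from the quantile normalized files was 1.25 (SE 1.62, adjusted p = 0.687), against 4.73 (SE 1.02, adjusted p = 0.215) on the 6 full-range arrays. From these files papilloma minus papilloma skin was -0.30 within slide 1 and 3.56 within slide 2.

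Sprr2 genes encode the smaller cross-bridging proteins, and 9 of the 11 measured here were called in at least 1 stage of lesion. Sprr2d had log2 levels of 6.56 and 6.75 in papilloma skin, 7.50 and 6.48 in tumor skin, 10.76, 11.79 and 10.67 in papilloma and 12.85 and 13.58 in tumor. Sprr2f had 5.65 and 5.70, 6.45 and 5.87, then 9.22, 9.98 and 9.06, and 10.98 and 11.94 in the same order of groups. Sprr2g had 5.42 and 5.45, 5.69 and 5.33, then 8.67, 9.23 and 8.27, and 10.27 and 11.25. In these 3 genes the groups formed 3 steps with no overlap, the skin arrays lowest, papilloma above them and tumor highest. The share of all genes with these 3 steps was not counted. Taken singly, the pairwise separations given above held in 18.9% to 26.2% of all genes. Sprr2h stood at 5.16 and 5.20 in papilloma skin, 4.64 and 5.06 in tumor skin, 8.40, 8.36 and 7.53 in papilloma and 9.11 and 10.17 in tumor. Sprr2e stood at 4.88 and 5.001, 5.22 and 4.95, then 7.51, 8.07 and 7.37, and 9.24 and 9.37. Sprr2i stood at 5.004 and 5.22, 5.71 and 5.50, then 7.16, 7.85 and 6.86, and 8.18 and 8.94. They followed the same 3 steps, and on the full-range arrays Sprr2e, Sprr2f, Sprr2g, Sprr2h and Sprr2i were well above background in the 3 papillomas and tumor 2 and not in skin.

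Sprr2d was 21.4-fold higher in papilloma (log2 fold change 4.42, SE 0.42, limma adjusted p = 0.00097) than in papilloma skin, and had a log2 fold change of 6.22 (SE 0.46, adjusted p = 0.000644) in tumor. From the quantile normalized scanner files it had log2 fold changes of 6.77 and 4.73, so that the order of the stages turned, and no gene of the 42 was called for a lesion effect that differed by stage. In the value table Sprr2f had log2 fold changes of 3.75 (SE 0.36) and 5.30 (SE 0.39), Sprr2g of 3.29 (SE 0.34) and 5.25 (SE 0.37) and Sprr2i of 2.18 (SE 0.32) and 2.96 (SE 0.35). No fold is given where skin was well above background on compressed arrays alone, on which 90.74% or more of all probes passed, since the difference is then taken from a background-level signal in skin. This holds for Sprr1b, Sprr2f, Sprr2g, Sprr2i, Lce3a, Lce3c and Lce3f in both stages and for Sprr2d, Sprr2e, Sprr2h and Lce3b in tumor. Where a probe was not well above background on any skin array of the stage, the fold is a lower bound, set by the dimmest probe well above background on each skin array or the probe's own signal if that was higher. In papilloma, Sprr2e was at least 6.14-fold, Sprr2h at least 7.54-fold and Sprr2k at least 3.07-fold higher, with adjusted p of 0.000436, 0.00313 and 0.0221. In tumor, the pseudogene Sprr2j-ps was at least 9.65-fold and Sprr2k at least 6.32-fold higher (adjusted p = 0.00572 and 0.00664), while Sprr2e and Sprr2h had log2 fold changes of 4.22 (SE 0.23) and 4.79 (SE 0.39). The bounds use background calls of the scanner files, which carry the mismatch of papilloma skin 1 named above.

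Sprr2a2 is read by 3 probes that did not behave alike. Its median level, 6.47 and 6.49 in papilloma skin, 5.65 and 6.02 in tumor skin, 11.15, 10.97 and 10.37 in papilloma and 9.88 and 11.62 in tumor, is that of 1 probe, with log2 fold changes of 4.35 (SE 0.46, adjusted p = 0.00161) and 4.91 (SE 0.50, adjusted p = 0.00192). Fitted on its own, the probe with a mean level of 14.85 had log2 fold changes of -0.32 and 0.09. The probe with a mean level of 5.10 had 0.11 and -0.18, and neither was called. All 3 probes are listed for both Sprr2a1 and Sprr2a2, so the called difference belongs to this pair of near-identical genes and to 1 of the 3 probes. The probe named Sprr2a1 alone stood at 4.73 to 5.67 throughout.

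The remaining Sprr genes showed no such step. Sprr2b, with the promoter shown above, ranged from 4.74 to 5.43 over the 9 arrays and was well above background on 2 of them. Sprr3, which in the body marks the lining of mouth and esophagus, ranged from 4.61 to 8.12 and was not called in papilloma (1.10, SE 0.59) or tumor (0.69, SE 0.65). Sprr4 had a log2 fold change of -0.95 (SE 0.42, adjusted p = 0.244) in papilloma and 0.35 in tumor.

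**Figure D2:**
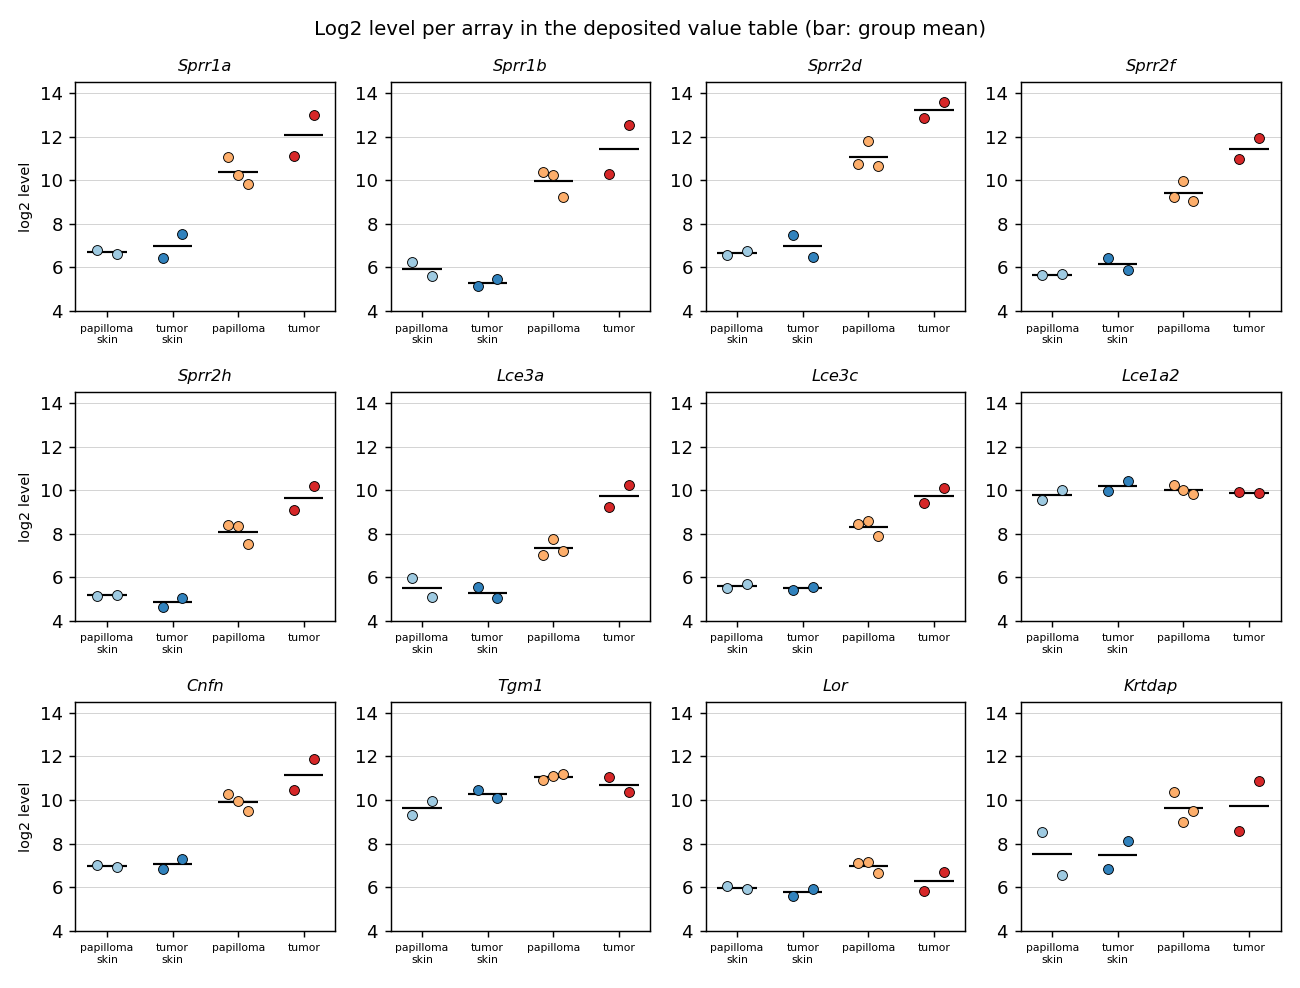
Log2 level of 12 of the genes in each array (points) with the group mean (bar), by group, in the value table. The lesion points lie above the skin points for the Sprr and Lce3 genes and Cnfn, Lce1a2 stays between 9.54 and 10.40, and Krtdap varies within every group.

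The Lce3 genes encode late envelope proteins that are induced when the skin barrier is injured. Lce3c had log2 levels of 5.52 and 5.70 in papilloma skin, 5.42 and 5.55 in tumor skin, 8.44, 8.58 and 7.89 in papilloma and 9.40 and 10.10 in tumor. Lce3b had 5.97 and 6.38, 6.05 and 6.32, then 8.33, 8.36 and 7.88, and 9.38 and 9.68. Lce3a had 5.98 and 5.07, 5.55 and 5.03, then 7.04, 7.78 and 7.21, and 9.23 and 10.23. Skin, papilloma and tumor arrays did not overlap in any of the 3. The share of all genes with such steps was not counted, and the single pairwise separations held in 18.9% to 26.2% of all genes. Lce3c had log2 fold changes of 2.69 in papilloma (SE 0.26, limma adjusted p = 0.00102) and 4.26 in tumor (SE 0.28, adjusted p = 0.000445). Lce3b had 2.01 (SE 0.21) and 3.34 (SE 0.23), and Lce3a 1.82 (SE 0.39) and 4.44 (SE 0.42). Within slide 1, from the scanner files, tumor minus tumor skin was 0.04 for Lce3a, -0.13 for Lce3b and 0.29 for Lce3c. Lce3f was called in tumor (1.77, SE 0.22) and fell short of the fold threshold in papilloma (0.87, SE 0.20, adjusted p = 0.0385). The probes of Lce3b and Lce3c share 54 of 60 bases, so that each may read the other's transcript.

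The Lce1 genes encode late envelope proteins of normal epidermis, and their 13 values stayed close to the level of skin in the same arrays. Lce1a2 was well above background on all 9 arrays and ranged from 9.54 to 10.40, with log2 fold changes of 0.25 (SE 0.21) in papilloma and -0.29 (SE 0.23) in tumor. Its probes are listed in part for Lce1a1 as well. The other 12 had mean levels of 5.25 to 6.09, near the level of unexpressed probes. Of these, Lce1a1 (1.14, SE 0.26, limma adjusted p = 0.0317) and Lce1d (1.08, SE 0.15, adjusted p = 0.00554) were called higher in tumor. Each was well above background on 1 tumor array, and Lce1a1 on 0 full-range arrays, so no fold is given for them. Lce1h was called lower in tumor (-1.02, SE 0.22, adjusted p = 0.0261), from 6.45 and 6.20 in tumor skin to 5.51 and 5.09 in tumor. Its probe was well above background on 3 arrays and on 0 full-range arrays. None of these 3 calls was kept with slide in the model, and with the 7 matching columns Lce1a1 and Lce1d were not called.

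Loricrin, involucrin and filaggrin are the best known products of the granular layer, and none of these 3 genes was called in either stage by limma, at an unadjusted p under 0.05 for Lor in papilloma alone. Lor, the main envelope protein, had log2 levels of 6.03 and 5.93 in papilloma skin, 5.60 and 5.93 in tumor skin, 7.10, 7.15 and 6.66 in papilloma and 5.84 and 6.71 in tumor. Its papilloma arrays lay above its skin arrays (log2 fold change 0.99, SE 0.27, limma adjusted p = 0.066), and its tumor arrays overlapped with skin. Ivl, the scaffold laid down first, had 5.90 and 5.62, 6.45 and 5.78, then 5.60, 5.92 and 5.62, and 6.26 and 6.76, with overlapping groups. Flg, which bundles keratin filaments and is then broken down to moisturizing factors, had 5.29 and 5.25, 6.87 and 6.23, then 5.68, 6.18 and 5.53, and 6.75 and 7.65. Both of its tumor skin arrays lay above papilloma skin and both tumor arrays above papilloma, without a call, at a log2 fold change of 1.28 (SE 0.34, adjusted p = 0.109) between tumor skin and papilloma skin and 1.41 (SE 0.31, adjusted p = 0.0981) between tumor and papilloma.

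Cnfn encodes cornifelin, an envelope component, and was the singly named gene with the largest difference in either stage. Its log2 levels were 7.04 and 6.92 in papilloma skin and 6.81 and 7.27 in tumor skin. They were 10.26, 9.97 and 9.50 in papilloma and 10.46 and 11.87 in tumor. Its papilloma arrays lay above papilloma skin, as in 19.9% of all genes, and its tumor arrays above tumor skin, as in 26.2%. Cnfn was 7.63-fold higher in papilloma (2.93, SE 0.39, limma adjusted p = 0.00463) and 17.4-fold higher in tumor (4.12, SE 0.43, adjusted p = 0.00209). From the quantile normalized scanner files it had 1.55 (SE 1.16) in papilloma and 3.41 (SE 1.27) in tumor, neither called. In these files papilloma minus papilloma skin was 0.76 within slide 1 and 2.75 within slide 2. The Cnfn probe was well above background on all 9 arrays, and the gene lies outside the chromosome 3 cluster.

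Tgm1 encodes the membrane-bound transglutaminase that cross-links the envelope, and it was called in papilloma and not in tumor. Its log2 levels were 9.29 and 9.94 in papilloma skin, 10.46 and 10.11 in tumor skin, 10.92, 11.09 and 11.20 in papilloma and 11.05 and 10.35 in tumor. The papilloma arrays lay above papilloma skin by 2.75-fold (1.46, SE 0.26, adjusted p = 0.0148), and the tumor and tumor skin arrays overlapped (0.42, SE 0.29, adjusted p = 0.396). The difference between the stages was not called (-1.04, SE 0.39, adjusted p = 0.292), and the papilloma call was lost with slide in the model and with the 7 matching columns. Tgm3, a transglutaminase of the upper epidermis and hair, had 7.67 and 8.18, 7.92 and 8.54, then 8.29, 7.87 and 7.76, and 7.50 and 7.57. It was not called in papilloma (0.05, SE 0.25) or tumor (-0.69, SE 0.27, adjusted p = 0.147), and its 2 probes differed, with -0.13 and -1.25 in tumor.

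Cdsn encodes corneodesmosin, which holds dead cells together. It had log2 levels of 6.50 and 6.42 in papilloma skin, 6.14 and 7.45 in tumor skin, 8.01, 6.80 and 6.82 in papilloma and 7.25 and 8.05 in tumor, and was not called in either stage. Krtdap, Dmkn and Sbsn are neighbors on chromosome 7 and encode secreted proteins of differentiating keratinocytes. Krtdap had 8.52 and 6.56, 6.82 and 8.11, then 10.38, 9.01 and 9.50, and 8.58 and 10.89. Dmkn had 11.47 and 9.25, 9.17 and 10.47, then 11.87, 10.55 and 10.86, and 10.90 and 13.46. Sbsn had 9.13 and 8.43, 8.23 and 9.52, then 10.39, 9.11 and 9.41, and 9.55 and 10.83. All 3 were well above background on all 9 arrays, skin included, and arrays of the same group differed by up to 2.57 log2 units. Krtdap had log2 fold changes of 2.10 (SE 0.82, adjusted p = 0.183) and 2.27 (SE 0.90, adjusted p = 0.15), and Dmkn of 0.73 (SE 0.89) and 2.36 (SE 0.97, adjusted p = 0.166), so none passed the threshold.

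The spread within groups was not the same for all members. Within each group the array with the higher Krtdap level, papilloma skin 1, tumor skin 2, papilloma 1 and tumor 2, was also the one with the higher summed level of 12 keratinocyte markers, by 0.94, 1.05, 1.10 and 1.99 log2 units in that order. On the same arrays Dmkn was higher by 2.22, 1.30, 1.16 and 2.57 and Sprr1a by 0.22, 1.11, 1.05 and 1.86. Sprr2d differed by -0.19, -1.02, -0.47 and 0.73, Sprr2e by -0.12, -0.27, -0.21 and 0.13 and Sprr2f by -0.05, -0.58, -0.30 and 0.96. Other called genes differed in either direction on these arrays. Tgm1 differed by -0.65, -0.35, -0.22 and -0.71 and Sprr2g by -0.03, -0.36, -0.08 and 0.98. Sprr1b differed by 0.62, 0.33, 0.63 and 2.22, Sprr2h by -0.04, 0.42, 0.46 and 1.06 and Cnfn by 0.11, 0.46, 0.52 and 1.41. The first and last differences use the columns papilloma skin 1 and tumor 1, whose identity has the limits given above. These are values of 9 arrays with no test, and papilloma 1 was set against the mean of the other 2 papillomas.

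**Figure D3:**
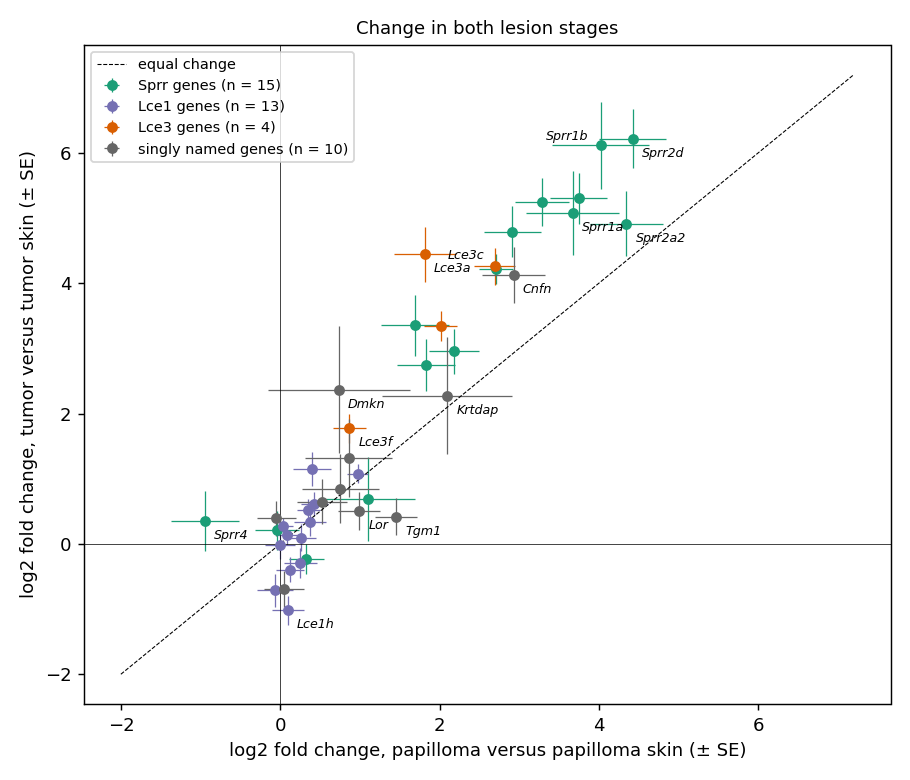
Log2 fold change of each gene in papilloma versus papilloma skin (x axis) and in tumor versus tumor skin (y axis), with SE, by family, the dashed line marking equal change. Sprr2d, Sprr1b and Lce3a lie above the line, Tgm1 below it, and the Lce1 genes cluster near 0. The comparisons have no array in common.

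Tumor and papilloma were also compared directly, to ask how the lesion changes with progression. Of the 42 genes, 7 were called higher in tumor and 0 lower, where 0.172% of all genes were called higher, 0.523% lower and 0.695% in either direction. The called genes were all 4 Lce3 genes and Sprr2e, Sprr2f and Sprr2g. Lce3a was 5.25-fold higher (log2 fold change 2.39, SE 0.39, limma adjusted p = 0.0357), Lce3c 2.72-fold (1.44, SE 0.26, adjusted p = 0.05), Lce3b 2.53-fold and Lce3f 2.47-fold. Sprr2f and Sprr2g were each 4.11-fold higher, and Sprr2e 3.16-fold (1.66, SE 0.21, adjusted p = 0.0156). Sprr2d had a log2 fold change of 2.14 and an adjusted p of 0.0672, and Sprr2a2 of -0.08. These 7 calls rest on few arrays. None was kept with slide in the model, with the 7 matching columns, from the scanner files, or without papilloma 1, papilloma 3, tumor 1 or tumor 2, and 3 were kept without either papilloma skin array. The median log2 fold change of the Lce3 genes was 1.39 with all 9 columns, 1.64 with the 7 matching columns and -0.59 from the quantile normalized scanner files, in which 4 of the 7 genes called here lay below 0.

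Between tumor skin and papilloma skin, 0 of the 42 genes were called, where 0.621% of all genes were called. An unadjusted p under 0.05 was found for 5 of the 42 and for 7736 of all 34797 genes. The median log2 fold change was 0.07. The lesion effect itself was compared between the stages by its difference, tumor minus tumor skin against papilloma minus papilloma skin. None of the 42 was called in limma, where 0.118% of all genes were called. An unadjusted p under 0.05 was found for 13 of the 42 and for 4911 of all 34797 genes. The differences with an unadjusted p under 0.05 were above 0 for the 4 Lce3 and 7 Sprr genes, Lce3a being the largest at 2.63 (SE 0.58, adjusted p = 0.142), and below 0 for Lce1h and Tgm1.

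Along chromosome 3 the lesion differences were grouped by family. In papilloma the called genes were Sprr2a2 to Sprr1a, with Sprr2b, Sprr2j-ps and Sprr3 not called among them, and then Lce3a, Lce3b and Lce3c. The Lce1 genes between these groups, from Lce1a1 to Lce1l, had log2 fold changes of at most 0.97, and the genes at both ends, Lor and Flg, were not called. In tumor the order was the same, with Sprr2j-ps, Lce3f, Lce1a1 and Lce1d added and Lce1h lower.

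**Figure D4:**
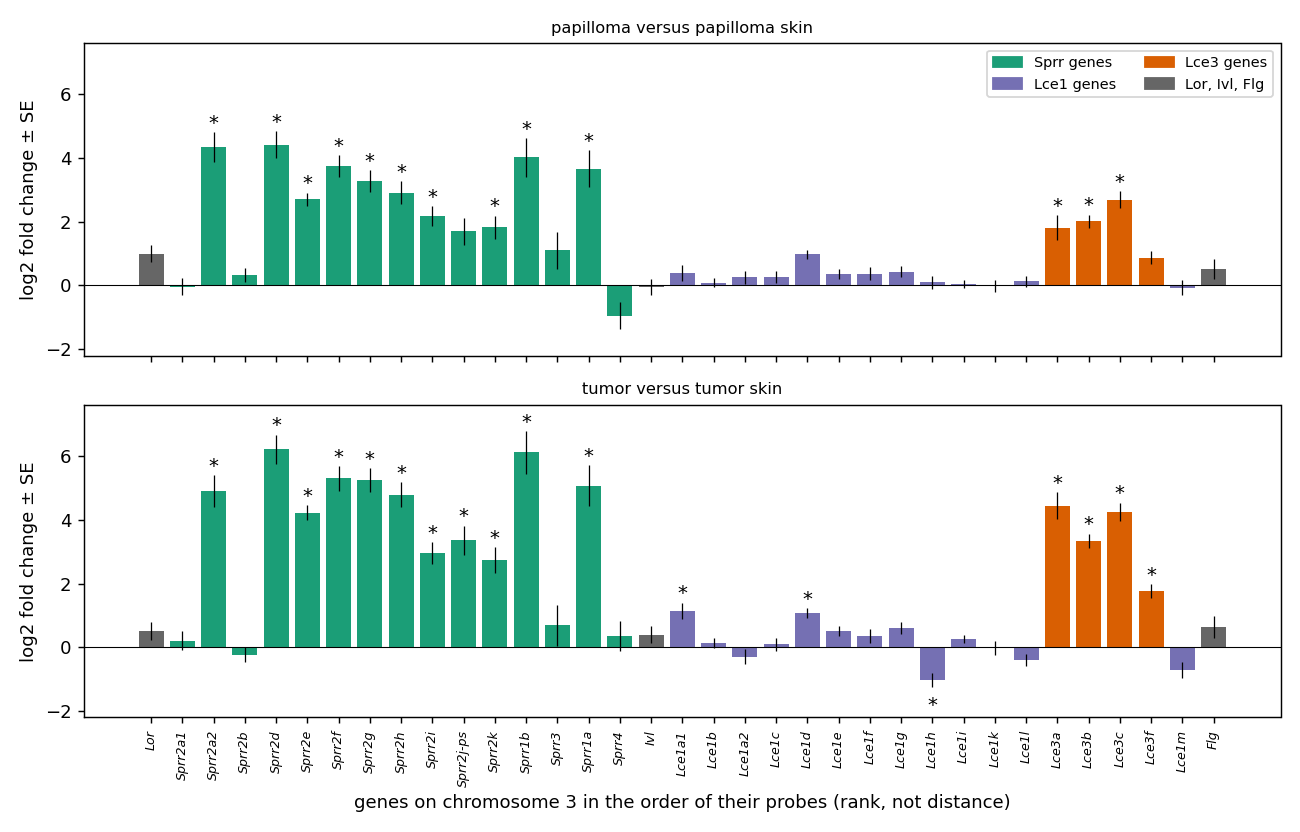
Log2 fold change with SE of the 35 genes on chromosome 3, in the order of their probes and not to distance, in papilloma versus papilloma skin (top) and tumor versus tumor skin (bottom), a star marking called genes. The Sprr2, Sprr1 and Lce3 genes stand out on both sides of the Lce1 genes, which stay near 0.

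The pattern was set against the scanner files and against the slides, whose assignment to columns has the limit given above. In the value table the 15 genes called in papilloma differed by 1.06 to 4.68 log2 units within slide 1 and by 1.15 to 5.05 within slide 2, and the 18 called higher in tumor by 1.18 to 5.34 within slide 1. These genes had no overlap between their groups in the same columns, which fixes the sign of these differences. From the scanner files the papilloma genes differed by -0.30 to 9.03 within slide 1, 14 of 15 above 0, and by 1.13 to 4.96 within slide 2. The tumor genes differed by -0.25 to 3.92 within slide 1, 14 of 18 above 0. With the 7 matching columns 14 genes were called higher in papilloma and 16 in tumor, 12 and 16 of them also called with all 9, and the calls lost were Sprr2i, Sprr2k and Tgm1 in papilloma and Lce1a1 and Lce1d in tumor. With slide in the model 12 genes were called in each stage, without Lce3a, Sprr1a and Tgm1 in papilloma and without Sprr1a, Sprr1b, Sprr2j-ps, Sprr2k and the 3 Lce1 genes in tumor. From the quantile normalized scanner files 0 genes of the whole array were called in limma, members included, although the Sprr median was 4.10 in papilloma and 4.41 in tumor and that of Lce3 3.77 and 2.74. On the 6 full-range arrays alone, which leave 1 array in each group but papilloma, the Sprr medians were 4.65 and 6.95, the Lce3 medians 3.29 and 6.33 and the Lce1 medians 0.44 and -0.13, again with 0 called. Those tests take the spread from the 3 papilloma arrays and assume it for the other groups.

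Single values moved most on the arrays with a mismatch. In papilloma skin 1, Sprr1a stood at 12.16 in the scanner file against 6.82 in the table, Sprr1b at 8.55 against 6.25 and Cnfn at 9.88 against 7.04. In the same array Sprr2d stood at 2.03 against 6.56. In tumor 1, Lce3c stood at 4.80 against 9.40, Lce3a at 3.53 against 9.23 and Sprr2h at 5.56 against 9.11. In tumor 2 the bright Sprr2d stood at 13.40 and 13.58 and the dim Sprr2b at 1.96 in the scanner file and 4.74 in the table.

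**Figure D5:**
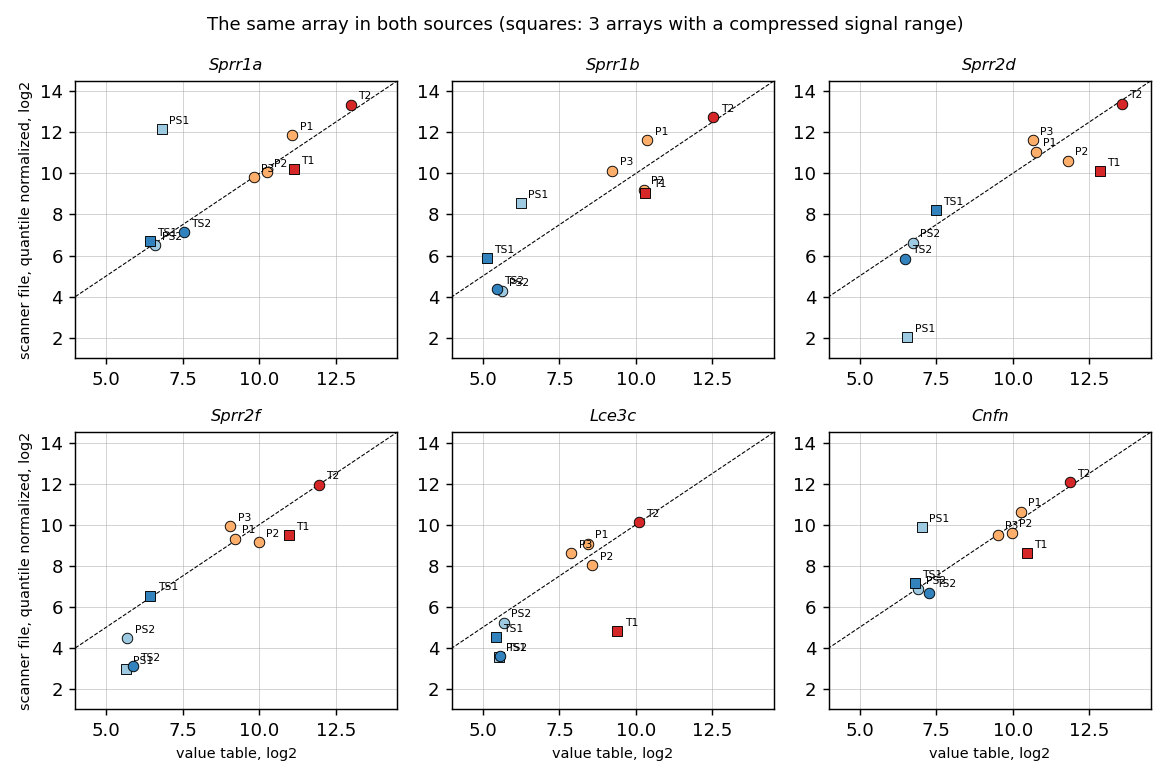
Log2 level of 6 genes in each array in the value table (x axis) and in the quantile normalized scanner files (y axis), the dashed line marking equality, with circles for full-range and squares for compressed arrays (PS, papilloma skin; TS, tumor skin; P, papilloma; T, tumor). Papilloma skin 1 and tumor 1 lie farthest from the line for Sprr1a, Sprr2d and Cnfn, and tumor skin 2, a full-range array, for Sprr2f.

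Other genes of epidermal cornification were read from lists, to show whether the wider program moved. Of 13 other envelope and S100-fused genes, 1 was called higher in papilloma, Crct1 (1.46), and 2 in tumor, Crct1 (2.52) and the plakin Ppl (2.19). Of 10 proteases and inhibitors of shedding, Klk6 was called in papilloma (1.30), and Klk6 (2.19) and Klk8 (3.74) in tumor. Of 12 desmosome and tight junction genes, Cldn1 was called in papilloma (1.19) and 0 in tumor. The median log2 fold changes of these 3 lists lay between 0.16 and 0.39 in papilloma and between 0.32 and 0.79 in tumor. Of 15 regulators of epidermal differentiation, Prdm1 was called in both stages (1.05 and 1.17) and the epithelial factors Elf3 (1.57) and Ehf (1.83) in tumor. Of 11 epidermal keratins, 3 were called in papilloma and 4 in tumor, among them Krt6a (3.38 and 3.74) and Krt6b (4.08 and 5.53), the keratins of activated epidermis. The median log2 fold changes of the keratins were 1.00 in papilloma and 1.57 in tumor. The 6 measured genes of the hair follicle inner sheath had medians of 0.62 in papilloma and -1.70 in tumor. They held 0 called in papilloma and 1 called lower in tumor, Krt28 (-1.73).

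Markers of the cells that the sort could hold were read in the same way. Of 12 keratinocyte markers, 8 were well above background on all 6 full-range arrays. Their summed log2 level was 12.99 and 12.05 in papilloma skin, 11.91 and 12.96 in tumor skin, 13.18 to 14.29 in papilloma and 12.90 and 14.89 in tumor. Of the 12, 0 were called in papilloma, with a median of 0.46, and 1 in tumor, the basal keratin Krt14 (3.29, adjusted p = 0.0346), with a median of 0.82. Krt14 had 2.18 in papilloma (adjusted p = 0.113), Krt5 had 1.00 and 1.39 and Perp 0.59 and 0.70, none of them called. The summed level was thus higher in every papilloma array than in papilloma skin and overlapped between tumor and tumor skin, and the part of keratinocyte RNA in the differences of the envelope genes was not tested. Of 11 neutrophil markers, 4 were called lower in papilloma, namely Mmp8, Camp, Ngp and Ltf, and these and Ly6g (-2.09) in tumor, while the summed level, which S100a8 and S100a9 dominate, lay between 19.64 and 20.17. Of 6 endothelial markers, 5 were called higher in papilloma and 2 in tumor, and of 5 eosinophil markers 3 were called lower in each stage. The macrophage list held 1 lower of 7 in each stage, the T cell list 0 of 5 and then 1 lower, the fibroblast list 0 of 8 and then 1 lower, and the mast cell list 0 of 6 in both, and their part in the result was not tested.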

How the data were processed

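Neutrophil RNA was hybridized to 9 one-color Agilent mouse arrays on 3 slides. The authors deposited scanner files of Feature Extraction 10.7.3.1 with a fluorescence intensity per spot, background-subtracted but not scaled between arrays, and a value table with log2 expression of each probe on each array. The methods describe quantile normalization, removal of chip effects with ComBat and limma, without stating which steps the table holds. If ComBat was applied, the tests do not count the degrees of freedom of the slides. No spot was saturated, and the number of arrays limits the precision.

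Groups came from the sample labels. Value table rows were named by probe, a gene was the median over its probes (7 members had several), and limma was fitted to 34797 genes with group alone. The members, lists and tests were chosen with earlier results of these data known. Values per array are given for the called members, up to 14 by mean level, and for the singly named genes, and of other lists the called genes and otherwise the 3 with the highest mean level could be named, 3 at most of the keratins. Of the lists read, 1 is not reported here. Further called members were given by their fold, and spread within groups and scanner values were chosen after they were seen. Of the array files, log2 of the processed intensity was quantile normalized, scaled to the 75th percentile, or corrected by normexp with an offset of 50. In all, 22 alternatives were run, among them each array left out. Code was tested on simulated data. Fits ran in limma 3.58.1 under R 4.3.3 (with the data.table package in version 1.17.8). Tables and plots were made with matplotlib 3.10.9, numpy 2.4.6 and pandas 2.3.3 in Python 3.11.15.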

Additional observations from a re-analysis of the deposited data

How the results depend on the processing

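Of 42 genes, 15 were called in papilloma, 19 in tumor and 7 between tumor and papilloma. All 5 settings on the scanner files (quantile normalized, with a slide term, scaled to the 75th percentile, by normexp, and on 6 full-range arrays) gave 0 in each of the 3. With a slide term in the fit of the deposited values, 12 were called in tumor and 0 between tumor and papilloma, and the 7 matching columns gave 0 for the latter. Without 1 array at a time, 11 to 16 genes were called in papilloma, 17 to 19 in tumor and 0 to 6 between tumor and papilloma, and 0 to 0 in the other comparisons. Without papilloma 1 or 3 or tumor 1 or 2 the last count was 0. Same-numbered arrays of a lesion and its skin correlated at 0.14 to 0.43 in their deviations from the group means. Those of different stages correlated at -0.93 to -0.07. In a group of 2 arrays the deviations mirror each other, so both tumor pairs hold the same value, 0.31, by construction. The labels name no shared source, so the numbers were not taken as a pairing. With the replicate number as a block 12 genes were called in papilloma (without Lce3a, Sprr1a and Tgm1), 17 in tumor (without Lce1a1 and Lce1h) and 0 between tumor and papilloma. Among called genes, directions reversed between tumor and papilloma, from the scanner files. Lce3a was -0.39 when quantile normalized and -0.35 with the slide term. Lce3b was -0.79 and -0.86 in these, -0.19 at the 75th percentile and -0.22 by normexp. Lce3c was -1.10, -1.35, -0.43 and -0.31 in the same order, and Sprr2e -0.38 and -0.34 in the first pair. The cause was not tested. No called gene changed direction on the deposited values. The Lce1 median in tumor, 0.14, was -0.0009 with the 7 matching columns, -0.14 from the quantile normalized scanner files and -0.13 on the 6 full-range arrays. Skin values of most called Sprr and Lce3 genes were near background, which limits how well their folds are known.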

Other observations

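Member probes of different genes can share sequence. The probes of Lce1h and Lce1i share 56 of 60 bases and those of Lce1d and Lce1i 46 of 60, so that the calls of Lce1d and Lce1h may include transcripts of a neighbor. The 2 probes of Dmkn had log2 fold changes of 0.69 and 0.78 in papilloma and 2.33 and 2.40 in tumor. The 2 probes of Ivl had 0.07 and -0.16 in papilloma and 0.41 and 0.38 in tumor. In Lce1a2 the probes had 0.35 and 0.15 in papilloma and -0.22 and -0.36 in tumor, and none of these was called.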
